A study of Mus musculus with 32 samples.

Results

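Il18bp, Il15, Il15ra and Csf1 rose in melanoma cells given IFN-γ, at 4 hrs and at 12 hrs, with or without Activin-A. These 4 genes belong to a set of 10 genes of interleukins, their receptors and related cytokines that was described here. The set was chosen by symbol, with earlier results of these data known: Il18bp, Il15, Il15ra, Il7, Il6, Lif, Osmr, Il6st, Csf1 and Il10rb. All 10 were present among the 12451 genes of the count table, the 4 that rose under the Ensembl identifiers ENSMUSG00000070427 (Il18bp), ENSMUSG00000031712 (Il15), ENSMUSG00000023206 (Il15ra) and ENSMUSG00000014599 (Csf1). YUMM3.3 cells are a line derived from Braf mutant mouse melanoma, grown here without other cells, and BRB-seq counts reads near the 3′ end of mRNAs from many barcoded wells in one library. There were 4 wells in each of 8 groups, namely untreated cells (NT), cells with 40 ng/ml Activin-A (ActA), cells with 20 ng/ml IFN-γ (IFNy) and cells with both factors (ActA_IFNy), each at 4 hrs and at 12 hrs. The doses are those of the labels, and legends of the study give a different Activin-A dose. The comparisons concern the effect of each factor and of the pair on the cultured melanoma cells. All wells held 1 cell line, and nothing in the labels says that they came from separate cultures, so the p-values measure the spread between wells, which may be technical.

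Interleukins are secreted proteins that act on neighbouring cells through paired receptor chains, most of which signal through JAK kinases and STAT factors. IL-15 is displayed on the cell surface by its receptor chain IL-15Rα, encoded by Il15ra, and handed from there to NK and T cells. Il18bp encodes a soluble protein that binds IL-18 and keeps it from its receptor, Il6st encodes the chain gp130 that most cytokines of the IL-6 family use, and Csf1 encodes the growth factor of macrophages. Promoters of genes that respond to IFN-γ often hold GAS motifs (gamma-activated sites) or sites of interferon regulatory factors (IRF), while Activin-A signals through SMAD2 and SMAD3.

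Library totals ran from 654539 to 1455074 counts with a median of 988019.5, so 3 counts, taken as the limit that a count of 0 allows, stood for 2.06 to 4.58 CPM (counts scaled to the library size), and this limit covers counting error only. Activin-A replicate 1 at 4 hrs stood apart from the other wells of its group, with a chi-square per gene of 2.45 to 2.89 against each of them, where the other pairs of that group gave 1.16 to 1.42. Of 10 markers of melanocytes and neural crest 9 were in the table, and they summed to 326 to 455 CPM per well. Of 12 leukocyte markers 5 were in the table, with Ptprc at 0 to 5, Csf1r at 0 to 3, Cd8a at 0 to 2, Itgax at 2 to 10 and Lyz2 at 2 to 17 counts per well and a sum of 10 to 24.7 CPM over all groups, and none of the 4 endothelial and none of the 4 epithelial markers was.

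Promoter windows of 250 bases before to 50 bases after a transcript start were held for 7 of the 10 members in the RefSeq table (build GRCm38.p6), with 2 windows for Il15ra. They are shown for 3 of the genes that rose with IFN-γ, with Il18bp at chr7:102018183-102018482 on the minus strand, Il15ra at chr2:11705043-11705342 and chr2:11705462-11705761 on the plus strand and Csf1 at chr3:107760420-107760719 on the minus strand, each written 5′ to 3′ along the gene's own strand. Both strands were searched for the GAS motif TTCNNNGAA, the IRF core GAAANNGAA and the Smad motif CAGAC, and capitals mark the matches.
Il18bp: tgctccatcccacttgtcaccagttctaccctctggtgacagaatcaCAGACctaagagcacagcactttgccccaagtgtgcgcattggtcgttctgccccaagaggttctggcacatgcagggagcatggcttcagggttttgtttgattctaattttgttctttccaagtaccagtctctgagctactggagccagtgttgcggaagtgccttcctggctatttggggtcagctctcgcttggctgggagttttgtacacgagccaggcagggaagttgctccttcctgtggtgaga
Il15ra window 1: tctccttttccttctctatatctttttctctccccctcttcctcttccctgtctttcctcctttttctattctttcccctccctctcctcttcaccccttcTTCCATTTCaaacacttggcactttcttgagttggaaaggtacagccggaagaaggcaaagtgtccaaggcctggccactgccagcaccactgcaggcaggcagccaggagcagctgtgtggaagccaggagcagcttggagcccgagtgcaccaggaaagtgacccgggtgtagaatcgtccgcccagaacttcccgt
Il15ra window 2: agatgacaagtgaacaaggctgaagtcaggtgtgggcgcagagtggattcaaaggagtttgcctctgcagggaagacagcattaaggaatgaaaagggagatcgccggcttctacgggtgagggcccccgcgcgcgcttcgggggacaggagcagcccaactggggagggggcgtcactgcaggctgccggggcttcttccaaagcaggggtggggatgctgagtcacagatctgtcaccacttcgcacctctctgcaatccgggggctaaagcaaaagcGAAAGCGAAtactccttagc
Csf1: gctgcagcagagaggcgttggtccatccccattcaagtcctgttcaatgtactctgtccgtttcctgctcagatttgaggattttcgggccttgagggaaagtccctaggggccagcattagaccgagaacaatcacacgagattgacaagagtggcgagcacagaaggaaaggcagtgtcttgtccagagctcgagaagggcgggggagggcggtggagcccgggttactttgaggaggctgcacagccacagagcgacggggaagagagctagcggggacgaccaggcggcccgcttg

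With the first transcribed base as position 0, each Il15ra window held 1 IRF core, at -149 to -141 on the minus strand in the first and at 30 to 38 on the plus strand in the second. The Il18bp window held CAGAC at -203 to -199, and the Csf1 window held none of the 3 motifs. No GAS motif was found in the 8 windows of the members, and Il6, Lif and Osmr held 1 CAGAC each while Il6st held no match. Over all 32851 windows of the table, 8.30% held the GAS motif, 8.56% the IRF core and 49.6% CAGAC, and no match says only that these letters are not in that window.

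Il18bp was at the counting limit without IFN-γ and was detected in every well with it. At 12 hrs the 4 untreated wells held 3, 0, 3 and 3 counts, and the 4 wells with IFN-γ held 157, 181, 174 and 256. At 4 hrs the untreated wells held 2, 3, 0 and 4 counts, and those with IFN-γ held 61, 82, 50 and 85. No well without IFN-γ exceeded 6 counts and no well with it fell below 50, so that the groups did not overlap. In bulk RNA, more expressing cells and more RNA per cell cannot be told apart. In CPM after TMM normalization, IFN-γ brought Il18bp to 195 ± 11.8 at 12 hrs and 73.1 ± 1.33 at 4 hrs (SD, n = 4). Relative to untreated wells the ratio of summed counts was 91.1 at 12 hrs, with an exact 95% interval of 47.7 to 199.95 that covers counting error only, and 33.1 at 4 hrs (17.2 to 73.2). The edgeR quasi-likelihood test gave a log2 fold change (log2FC) of 6.42 ± 0.22 (SE) at 12 hrs with a Benjamini-Hochberg adjusted p = 8.42e-48, and of 4.99 ± 0.28 at 4 hrs with adjusted p = 1.42e-22. Il18bp, like Il15 and Il15ra below, passed the filter on low counts only through the wells with IFN-γ. The p-values of these 3 genes are conditional on that filter. In the GRCm38 annotation of GENCODE M21, 80 exon bases of Il18bp are shared with Numa1 on the opposite strand, and whether reads were counted by strand is not given in the sources used here. Numa1 lay at 78.3 to 122 CPM in the 16 wells without IFN-γ and at 75.0 to 113 in the 16 with it.

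Il15 and Il15ra, the ligand and the chain that displays it, rose together under IFN-γ. At 12 hrs Il15 had 2 counts in each of the 4 untreated wells and 20, 26, 26 and 26 counts with IFN-γ. At 4 hrs it had 2, 3, 2 and 1 counts untreated and 15, 12, 8 and 26 with IFN-γ. Every well with IFN-γ lay above every untreated well at both times. The ratio of summed counts was 13.1 (6.38 to 31.1) at 12 hrs and 8.18 (3.90 to 19.8) at 4 hrs, and edgeR gave log2FC 3.62 ± 0.39 (SE, adjusted p = 1.99e-13) and 2.96 ± 0.45 (adjusted p = 8.42e-07). Il15ra had 1, 2, 0 and 2 counts in untreated wells at 12 hrs and 16, 19, 30 and 35 with IFN-γ. At 4 hrs it had 2, 0, 0 and 1 counts untreated and 19, 34, 16 and 29 with IFN-γ. Here too the groups were separate, and the lowest well with IFN-γ held 16 counts while the highest well without it held 5. The ratio of summed counts was 21.3 (8.85 to 67.2) at 12 hrs and 35.0 (11.6 to 172.9) at 4 hrs, where the untreated wells summed to only 3 counts. The edgeR log2FC of Il15ra was 4.27 ± 0.43 at 12 hrs (adjusted p = 1.69e-14) and 4.92 ± 0.48 at 4 hrs (adjusted p = 2.66e-12), the latter 5.81 without untreated replicate 1, which held 2 of the 3 counts.

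Csf1 was well expressed in untreated cells and rose less than 2-fold with IFN-γ. At 12 hrs the untreated wells were at 114, 111, 118 and 116 CPM, and the wells with IFN-γ at 127, 187, 216 and 193. At 4 hrs the untreated wells were at 104, 103, 98.8 and 103 CPM, and those with IFN-γ at 176, 196, 153 and 190. The groups did not overlap at either time, although replicate 1 at 12 hrs lay much nearer to the untreated wells than the other 3 did. The log2FC was 0.67 ± 0.10 (SE) at 12 hrs, a 1.59-fold increase (edgeR adjusted p = 4.58e-08), and 0.83 ± 0.10 at 4 hrs, a 1.78-fold increase (edgeR adjusted p = 1.89e-09).

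Il6st and Il10rb, chains that the IL-6 and IL-10 families share with other cytokines, did not pass the test with IFN-γ. Over all 32 wells Il6st ran from 80.0 to 128 CPM and Il10rb from 20.7 to 45.9. The log2FC of Il6st was -0.14 at 12 hrs (95% interval -0.36 to 0.08) and 0.14 at 4 hrs (-0.09 to 0.38). That of Il10rb was 0.06 (-0.30 to 0.42) and 0.07 (-0.29 to 0.44). In the same GENCODE annotation Il10rb shares 569 exon bases with Gm21970, a gene model on the same strand that the count table does not list.

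**Figure D1:**
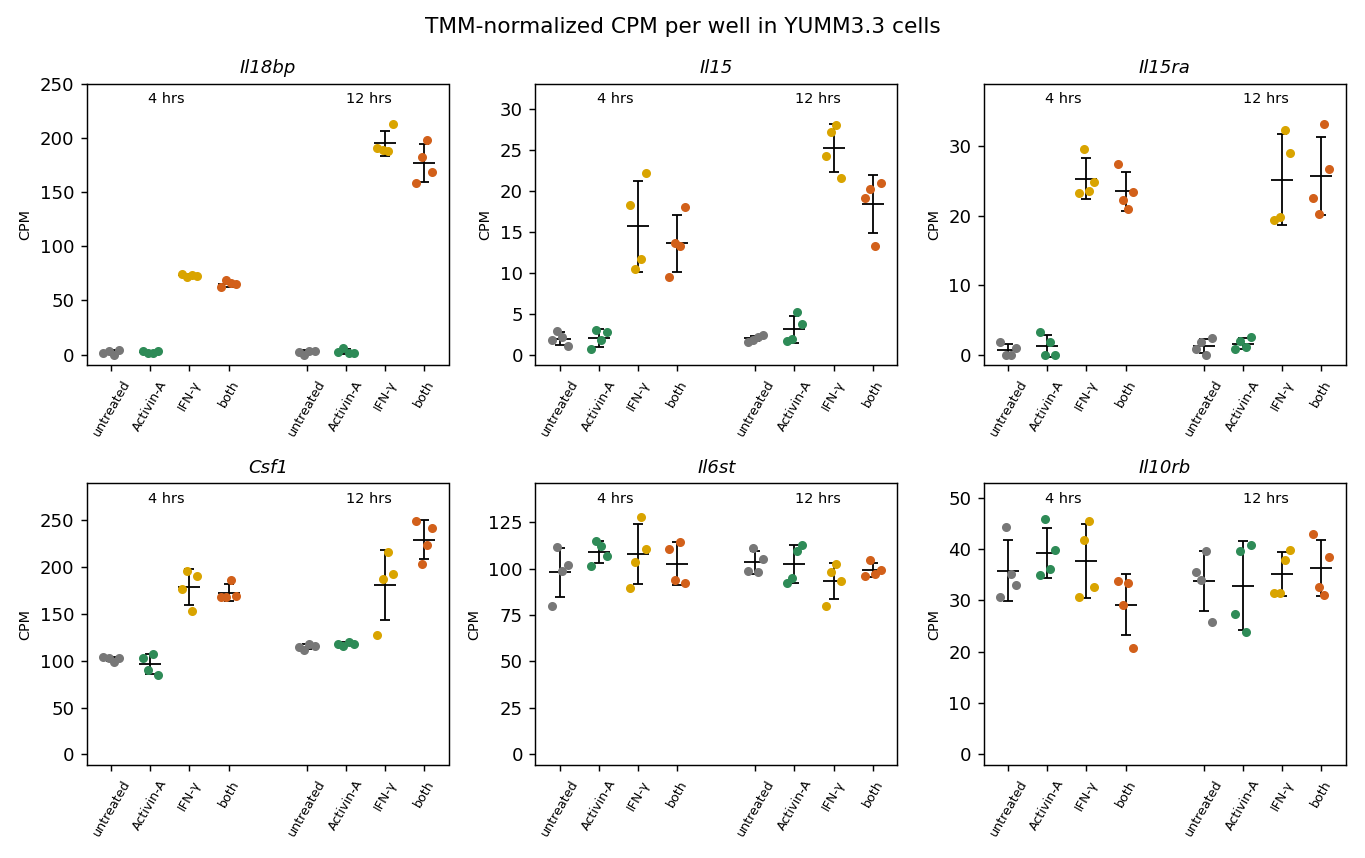
CPM (TMM-normalized, vertical axis from 0) of 6 members in each of the 32 wells, by treatment at 4 and 12 hrs, where points are wells and bars the mean ± SD of 4 wells. Il18bp, Il15 and Il15ra stay near 0 without IFN-γ, Csf1 lies between 84.3 and 120.0 CPM without IFN-γ and above that with it, and Il6st overlaps between treatments, as does Il10rb except for both factors against Activin-A at 4 hrs.

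Of the 10 members 6 passed the filter on low counts, and 4 of them were called higher with IFN-γ at each time, Il18bp, Il15, Il15ra and Csf1. Of all genes tested, 9.25% were called at 12 hrs (6.43% higher) and 5.06% at 4 hrs (4.29% higher). The members, Csf1 included, were chosen with earlier results of these data known, so the count of 4 among 6 is a description. Il18bp, Il15 and Il15ra also passed the filter only through the wells with IFN-γ and thus had to differ. Their p-values are conditional on that filter. The same holds for the comparison of both factors with Activin-A alone, in which other wells were used but the filter was shared. There Il18bp went from 3, 6, 1 and 1 counts to 140, 162, 179 and 145 at 12 hrs, and from 5, 1, 2 and 4 to 59, 81, 69 and 72 at 4 hrs. At 12 hrs Il15 had 2, 2, 5 and 3 counts with Activin-A and 17, 18, 12 and 18 with both factors, and Il15ra had 1, 2, 1 and 2 against 20, 18, 30 and 23. All 3 were again separate between the groups, which the shared filter favours, and the share of all genes with separate wells was not computed. Csf1 went from 118 ± 1.60 to 229 ± 20.7 CPM at 12 hrs and from 96.3 ± 10.8 to 173 ± 8.77 at 4 hrs (SD, n = 4). The edgeR log2FC with both factors against Activin-A at 12 hrs was 5.96 ± 0.22 (SE) for Il18bp (adjusted p = 6.65e-45), 4.01 ± 0.42 for Il15ra (adjusted p = 1.39e-13), 2.58 ± 0.39 for Il15 (adjusted p = 6.76e-08) and 0.96 ± 0.10 for Csf1 (adjusted p = 1.56e-14). Without Activin-A replicate 2, which held 6 of the 11 counts of Il18bp in that group, its log2FC was 6.64. The same 4 members were called at 4 hrs, with log2FC of 4.54 for Il18bp, 3.79 for Il15ra, 2.84 for Il15 and 0.83 for Csf1. Without Activin-A replicate 1, the well that stood apart and held 5 counts of Il15ra, all 4 were still called, and the log2FC was 4.70 for Il18bp, 4.85 for Il15ra, 2.45 for Il15 and 0.87 for Csf1. In these comparisons 9.62% of genes were called at 12 hrs (6.18% higher) and 6.07% at 4 hrs (4.41% higher). Il10rb was lower in all 4 wells with both factors than in all 4 with Activin-A at 4 hrs, at 29.2 ± 6.03 against 39.2 ± 4.93 CPM, but did not pass the edgeR test (log2FC -0.40, adjusted p = 0.259).

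**Figure D2:**
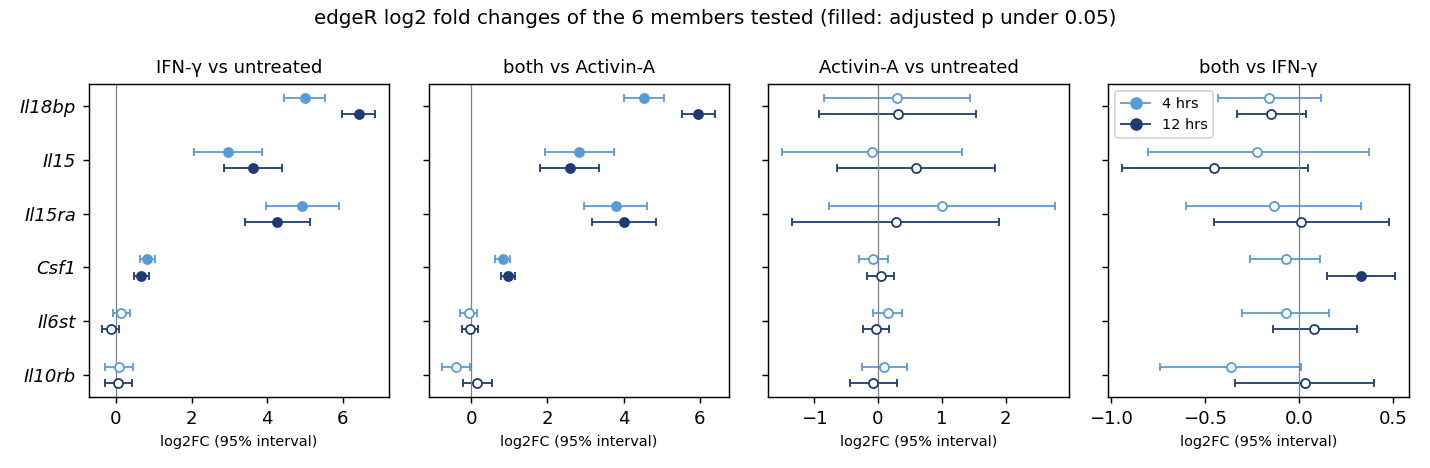
Log2 fold change (horizontal axis, with 95% interval) of the 6 tested members in 4 comparisons at 4 and 12 hrs, each panel with its own scale. Filled points had an edgeR adjusted p under 0.05: Il18bp, Il15, Il15ra and Csf1 in both comparisons of IFN-γ, and only Csf1 at 12 hrs in those of Activin-A.

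With Activin-A alone 0 of the 6 tested members were called by edgeR at either time, with 0 of them under an unadjusted p of 0.05 and 0 called by DESeq2. Of all genes 2.41% were called at 12 hrs and 1.64% at 4 hrs. Under an unadjusted edgeR p of 0.05 were 1017 of 8971 genes at 12 hrs and 1028 of 9137 at 4 hrs. At 12 hrs Csf1 was at 118, 116, 120.0 and 118 CPM with Activin-A, close to the untreated wells, and the log2FC was 0.04 (95% interval -0.17 to 0.25). At 4 hrs its log2FC was -0.07 (-0.29 to 0.15). The intervals of Il6st were -0.24 to 0.18 at 12 hrs and -0.08 to 0.38 at 4 hrs, and those of Il10rb -0.44 to 0.30 and -0.25 to 0.46. Il18bp, Il15 and Il15ra held 0 to 6 counts in these wells and their intervals were wide, at 12 hrs -0.92 to 1.54, -0.64 to 1.83 and -1.34 to 1.89, and at 4 hrs -0.85 to 1.44, -1.50 to 1.31 and -0.77 to 2.77. Without the well that stood apart, Activin-A replicate 1, the log2FC at 4 hrs went from 1.00 to -0.07 for Il15ra, from -0.09 to 0.29 for Il15 and from 0.30 to 0.13 for Il18bp, none of them called.

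Adding Activin-A to IFN-γ left Il18bp, Il15 and Il15ra without a called change, whereas Csf1 was higher at 12 hrs in a call that was lost without any 1 of 6 wells. Csf1 was at 249.6, 203, 223 and 241 CPM with both factors and at 127, 187, 216 and 193 with IFN-γ alone, so that the groups overlapped. The log2FC was 0.33 ± 0.09 (SE), a 1.26-fold difference, with an edgeR adjusted p = 0.0415, and 1 of 6 members was called where 1.03% of all genes were. DESeq2 gave adjusted p = 0.145 and the edgeR fit to all 32 samples 0.0666. Without the lowest well, IFN-γ replicate 1, the log2FC was 0.21 (edgeR adjusted p = 0.386). The edgeR adjusted p was 0.0714 and 0.0551 without IFN-γ replicates 2 and 4, and 0.185, 0.0777 and 0.152 without replicates 1, 3 and 4 of both factors, and the call held without the remaining 2 wells, each in turn. At 4 hrs Csf1 was at 168, 168, 186 and 169 CPM with both factors against 176, 196, 153 and 190 with IFN-γ, and the log2FC was -0.07 (95% interval -0.26 to 0.11).

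**Figure D3:**
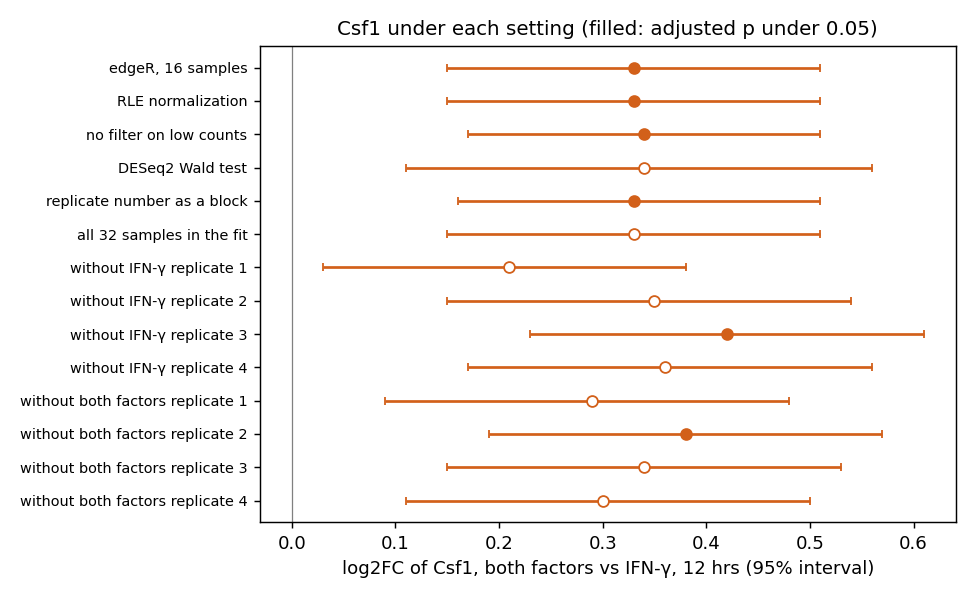
Log2 fold change of Csf1 with both factors against IFN-γ at 12 hrs (horizontal axis, with 95% interval) under each processing setting and with each well left out in turn. Filled points had an adjusted p under 0.05, and the lowest estimate, 0.21, is that without IFN-γ replicate 1.

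For the 3 members at the counting limit without IFN-γ, the intervals give the size of difference that the added Activin-A could have made. Il18bp was at 158, 183, 198 and 169 CPM with both factors at 12 hrs and at 190.4, 189, 188 and 213 with IFN-γ alone, with log2FC -0.15 (95% interval -0.33 to 0.04). At 4 hrs its 4 wells with both factors, at 62.2 to 69.2 CPM, lay below the 4 with IFN-γ, at 71.5 to 74.7, but the test was not passed (log2FC -0.16, interval -0.43 to 0.12, edgeR adjusted p = 0.814). Il15 was lower in all 4 wells with both factors at 12 hrs, at 13.3 to 21.0 against 21.6 to 28.1 CPM, without passing (log2FC -0.45, interval -0.94 to 0.05, edgeR adjusted p = 0.561). How often wells separate in this way over all genes was not computed. At 4 hrs the wells of Il15 overlapped, with log2FC -0.22 (-0.80 to 0.37). The log2FC of Il15ra was 0.01 (-0.45 to 0.48) at 12 hrs and -0.13 (-0.60 to 0.33) at 4 hrs. At 4 hrs 0.810% of all genes were called by edgeR, and 850 of 9137 were under an unadjusted p of 0.05. Of the 6 members 0 were called by edgeR, 0 were under that unadjusted p and 0 were called by DESeq2. Among these members Il10rb was at log2FC -0.36 (95% interval -0.74 to 0.01, edgeR adjusted p = 0.553) and Il6st at -0.07 (-0.30 to 0.16).

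The interaction term asks whether the effect of IFN-γ differed with and without Activin-A. No member was called at 12 hrs, where 0.0111% of genes were. Under an unadjusted edgeR p of 0.05 were 612 of 8971 genes and 1 of 6 members, Csf1 (log2FC 0.29, 95% interval 0.01 to 0.57, edgeR adjusted p = 0.711). For Il15 the term was -1.04 (-2.38 to 0.31). With a well left out it ran from 0.17 to 0.39 for Csf1 and from -1.29 to -0.66 for Il15, without a call. At 4 hrs 0% of genes and 0 of 6 members were called by edgeR and DESeq2 alike, with 505 genes and 0 members under an unadjusted edgeR p of 0.05. For Il10rb the term at 4 hrs was -0.47 (-0.98 to 0.05, edgeR adjusted p = 0.927).

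The level of Il18bp under IFN-γ was higher at 12 hrs than at 4 hrs, in direct comparisons of the wells that were chosen after seeing the data. With IFN-γ alone it was 2.68-fold higher (log2FC 1.42 ± 0.11 SE, edgeR adjusted p = 2.36e-18), and with both factors 2.69-fold higher (log2FC 1.43 ± 0.12, edgeR adjusted p = 6.29e-18), with no overlap of wells in either. Il15 with IFN-γ was at 25.3 ± 2.94 CPM at 12 hrs and 15.7 ± 5.58 at 4 hrs (SD, n = 4), and did not pass (log2FC 0.65, edgeR adjusted p = 0.0936). Csf1 was at 181 ± 37.8 and 179 ± 19.3 CPM with IFN-γ alone (log2FC 0.01), but rose from 173 ± 8.77 to 229 ± 20.7 CPM with both factors (log2FC 0.41 ± 0.09, edgeR adjusted p = 0.00108). Il15ra under IFN-γ was at 25.2 ± 6.56 and 25.3 ± 2.97 CPM. With IFN-γ alone 1 of 6 members was called between the times and 8.41% of all genes, and with both factors 2 of 6 and 7.10%.

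When the effect of IFN-γ against untreated wells was compared between the times, 0 of 6 members were called by edgeR, beside 0.579% of all genes. Under an unadjusted edgeR p of 0.05 were 1 member and 689 of 9332 genes, and DESeq2 called 0 members. The difference for Il18bp was 1.45 on the log2 scale, with a wide 95% interval of 0.08 to 2.81 (edgeR adjusted p = 0.637) that rests on untreated wells with 0 to 4 counts. It was 0.68 (-0.82 to 2.17) for Il15 and -0.16 (-0.44 to 0.13) for Csf1. Untreated cells gave 0 called members by edgeR and by DESeq2 between the times, where 4.90% of genes were called. Under an unadjusted edgeR p of 0.05 were 0 members and 1637 of 9332 genes. All 4 untreated wells at 12 hrs lay above all 4 at 4 hrs for Csf1, but by a log2FC of only 0.17 (edgeR adjusted p = 0.471). For the effect of Activin-A 0 of 6 members were called between the times by edgeR and 0 by DESeq2, beside 0.0214% of genes by edgeR. Under an unadjusted edgeR p of 0.05 were 0 members and 569 of 9332 genes.

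Il7, Lif, Il6 and Osmr lay near the counting limit and did not pass the filter. Il7, a growth factor of lymphocytes, was above 3 counts in 10 of 16 wells with IFN-γ and in 1 of 16 without it. At 12 hrs it had 0, 3, 0 and 2 counts untreated and 7, 5, 3 and 8 with IFN-γ, and at 4 hrs 1, 1, 0 and 1 with Activin-A and 3, 6, 5 and 8 with both factors. The ratio of summed counts was 4.91 (exact 95% interval 1.83 to 16.5) in the first pair and 7.55 (2.27 to 39.4) in the second. Without the filter, edgeR called Il7 in both, with log2FC 2.17 ± 0.65 (SE, adjusted p = 0.0169) and 2.72 ± 0.72 (adjusted p = 0.00745). DESeq2 called it in neither, with adjusted p = 0.131 and 0.0859. It was not called with IFN-γ against untreated at 4 hrs (log2FC 1.19, adjusted p = 0.377) or with both factors against Activin-A at 12 hrs (log2FC 1.59, adjusted p = 0.217). The untreated wells at 4 hrs held 1, 2, 2 and 5 counts of Il7. Activin-A against these wells gave log2FC -1.68 in the unfiltered edgeR fit, not called (adjusted p = 0.506). In the order IFN-γ at 12 and 4 hrs, then both factors against Activin-A at 12 and 4 hrs, the unfiltered fits called 6.88%, 3.80%, 7.24% and 4.64% of genes. Il7 shares 105 exon bases with the antisense gene model Gm16685, which the count table does not list, so reads of the pair cannot be told apart without strand.

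Lif, Il6 and Osmr, which encodes the receptor chain of oncostatin M, had few counts in every group. Lif, the leukemia inhibitory factor, had 0 to 10 counts per well, and with both factors at 4 hrs it had 3, 9, 10 and 5 counts against 2, 4, 2 and 0 with IFN-γ. These wells overlapped, and the unfiltered edgeR fit did not call the difference (log2FC 1.54, adjusted p = 0.325). Il6 had 0 to 2 counts and was at 0 in 20 of 32 wells, and Osmr had 0 to 3 counts and was at 0 in 18. No treatment comparison called Lif, Il6 or Osmr without the filter, and the counts of Il6 and Osmr gave wide errors, such as a log2FC of 1.21 ± 1.11 (SE) for Il6 with IFN-γ at 12 hrs.

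**Figure D4:**
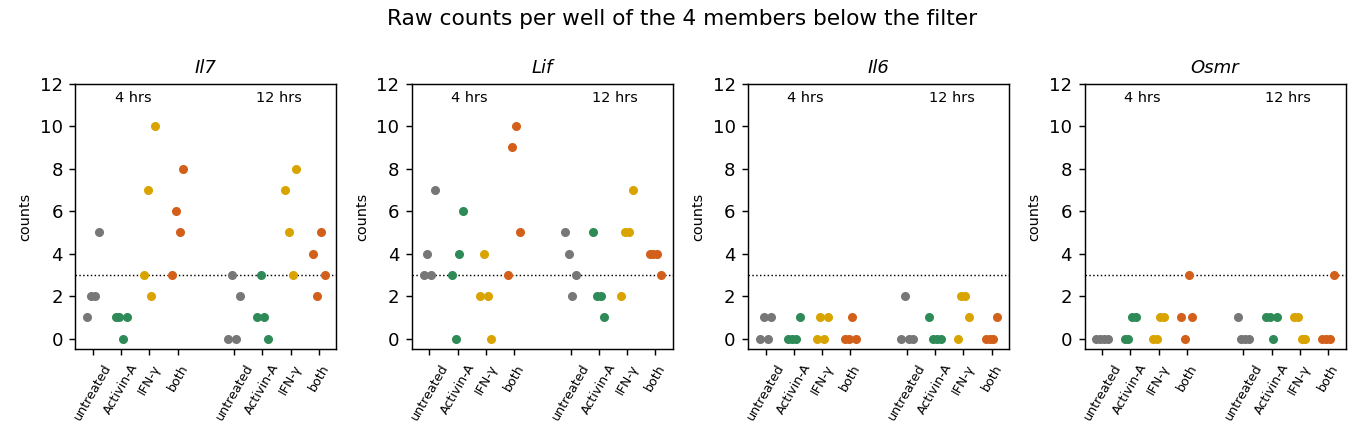
Raw counts per well (vertical axis, 1 scale in all panels) of the 4 members that did not pass the filter, by treatment at 4 and 12 hrs, with 1 point per well and a dotted line at 3 counts. Il7 exceeds the line in 10 of 16 wells with IFN-γ and in 1 of 16 without, and Il6 and Osmr never exceed it.

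Related cytokine genes outside the 10 gave the surroundings of these changes. Of 38 other receptor subunits 15 were tested at 12 hrs, and 6 were called higher and 0 lower with IFN-γ, where 6.43% of all genes were called higher, with a median log2FC of 0.32 against -0.010 over all genes tested. Il13ra1, a chain of the IL-4 and IL-13 receptor, rose from 1 to 4 counts per well to 24 to 35 (log2FC 3.49 ± 0.35 SE, edgeR adjusted p = 9.65e-15). Il12rb1, a chain of the IL-12 and IL-23 receptors, rose from 0 to 2 counts to 6 to 15 (log2FC 3.87 ± 0.61). Il13ra1 and Il18rap at both times, and Il12rb1 at 12 hrs, passed the filter only through the wells with IFN-γ, so the counts of receptor subunits called higher and the medians over those tested are a description here too. Il1rl1, the receptor of IL-33, rose from 34.2 ± 2.14 to 112 ± 11.3 CPM (SD, n = 4, log2FC 1.72), and the log2FC was 1.11 for Il17rc and 0.84 for Ifnar2. At 4 hrs 14 were tested, with a median log2FC of 0.05 against -0.007 over all genes tested, and 4 were higher (4.29% of all genes), Il13ra1 at log2FC 2.25, Il18rap at 1.99, Il1rl1 at 1.09 and Il17rc at 0.67, and 1 was lower, Ifngr2, a chain of the IFN-γ receptor, at -0.42. With both factors against Activin-A, 6 of 15 were called higher at 12 hrs (6.18% of all genes) and 4 of 14 at 4 hrs (4.41%), with Il13ra1 at 3.38 and 1.72, Il1rl1 at 1.45 and 0.78, Il17rc at 1.20 and 0.86 and Il18rap at 1.80 and 1.68, and Il12rb1 at 2.90 at 12 hrs. The median log2FC of the list in this comparison was 0.41 against -0.008 over all genes at 12 hrs and 0.05 against -0.012 at 4 hrs.

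Of 34 other interleukins 8 were in the table and 3 were tested. With IFN-γ at 12 hrs Il16 was higher (log2FC 0.94, edgeR adjusted p = 0.0444) and Il33 lower (log2FC -0.25, edgeR adjusted p = 0.0164), and at 4 hrs Il18, whose protein Il18bp binds, was higher at 14.8 ± 3.69 against 6.16 ± 2.89 CPM (SD, n = 4, log2FC 1.21, edgeR adjusted p = 0.0315). Il18, which passed the filter only through the wells with IFN-γ at both times, was also higher with both factors than with Activin-A at 12 hrs (log2FC 0.97, edgeR adjusted p = 0.0491), a call that held in 1 of 13 alternatives. Activin-A lowered Il33, an alarmin of the IL-1 family, with log2FC -0.98 at 12 hrs and -0.53 at 4 hrs. With both factors against IFN-γ Il33 was again lower at 12 hrs (log2FC -0.87, edgeR adjusted p = 3.46e-13), and no other gene of the 4 lists was called by edgeR in that comparison at 12 or 4 hrs. Activin-A also lowered Sigirr at 12 hrs (log2FC -0.71, edgeR adjusted p = 0.0264) and raised Il1rl1 at 4 hrs (log2FC 0.55, edgeR adjusted p = 0.0104). Of 15 other genes of the IL-6 family 4 were tested, and 0 were called by edgeR with IFN-γ or with Activin-A at either time, while Il11 was lower with both factors than with Activin-A at 4 hrs (log2FC -1.18, edgeR adjusted p = 0.0031). Of 8 other genes of colony-stimulating factors 2 were tested, and both were higher with IFN-γ at 12 hrs, Il34, the second ligand of the Csf1 receptor, at log2FC 0.46 and Csf2ra at 1.06, where 6.43% of all genes were, with 0 called by edgeR at 4 hrs, and Csf2ra passed the filter at 12 hrs only through the wells with IFN-γ. With both factors against Activin-A Il34 was higher at 12 hrs (log2FC 0.33, edgeR adjusted p = 0.0266) and at 4 hrs (log2FC 0.46, edgeR adjusted p = 0.0101). Several of these calls were lost in part of their 13 alternatives, each well left out included. With IFN-γ the call held in 5 of 13 for Il16 and 8 of 13 for Csf2ra, in 10 for Il33 and 11 for Ifnar2 at 12 hrs, and in 7 for Il18, 4 for Il17rc and 11 for Ifngr2 at 4 hrs. With Activin-A it held in 7 for Sigirr and 11 for Il1rl1, and with both factors against Activin-A it held in 7 for Il34 at 12 hrs, 11 for Il34 at 4 hrs and 12 for Il11.

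The genes most like each member over the 32 samples were given by Pearson's r of log2 CPM among 9331 other genes, as a description in which all points share the 8 groups and the library depths. Il18bp was most like Apol9a (r = 0.985), Tapbp (0.984) and Zbp1 (0.983), and Il15ra most like Gbp7 (0.977), Irgm1 (0.974) and Gbp2 (0.973). Csf1 was most like Parp3 (0.923), Casp12 (0.918) and Wars (0.918).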

How the data were processed

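BRB-seq libraries of 32 wells of YUMM3.3 cells (8 groups of treatment and time, 4 wells each) were analyzed from the raw counts per gene that the authors deposited. Per the submitters' processing notes the tools were STAR 2.7.10b, featureCounts and DESeq2 1.36.0 with build GRCm39 (mm39), whereas the annotation, the handling of molecular identifiers and the strand setting are not given in the sources used here. The table held 12451 Ensembl genes, each with a count in at least 4 samples, of which 12437 matched a symbol, and 0 of its columns belonged to no sample.

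From these counts, edgeR 4.0.16 (R 4.3.3) was run with filterByExpr, TMM normalization and the quasi-likelihood test, on the 16 samples of a time (8971 genes at 12 hrs, 9137 at 4 hrs) or on all 32 (9332) for comparisons between times. P-values were adjusted by Benjamini-Hochberg over all genes tested and called under 0.05, and SE was |log2FC| over the root of F. CPM are TMM-normalized. Samples were grouped by the labels' treatment and time.

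Alternatives were RLE normalization, no filter, DESeq2 1.42.0, all 32 samples in each fit, a block for the replicate number and leaving out each well. The members and gene lists were chosen with earlier results of these data known. All 10 members are named. Of 4 related lists, described for the treatment comparisons only, called genes are named, up to 5 per list and comparison by smallest adjusted p, and for called members with at least 10 mean counts the 3 genes most like them. The direct comparisons of 12 hrs against 4 hrs under IFN-γ were added after seeing the data. Ratios of summed counts have exact 95% intervals. Motifs were searched in RefSeq promoter windows and exon overlaps in GENCODE M21, both of GRCm38, for names and sequences only.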

Additional observations from a re-analysis of the deposited data

Results flagged for a closer look

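In 36 groups of 4 wells examined (members with a group mean of at least 10 counts), 3 held a well far from the other 3, where chance alone gives about 1 group in 20. Il18bp with IFN-γ at 12 hrs had 1 well at 212.8 CPM, with the others at 188 to 190.4. Csf1 in untreated cells at 4 hrs had 1 well at 98.8 CPM, with the others between 102.9 and 103.7. Csf1 with both factors at 4 hrs had 1 well at 185.7 CPM, with the others at 167.6 to 168.7. The cause was not tested in any of them.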

How the results depend on the processing

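The 58 log2FC of members that were examined had 783 alternative values, of which 740 kept direction and side of the threshold, 8 lost the call (all of Csf1 with both factors against IFN-γ at 12 hrs), 1 gained it and 34 changed sign. RLE normalization and the replicate block kept all 58. All calls of Il18bp, Il15, Il15ra and Csf1 with IFN-γ against untreated, or with both factors against Activin-A, held under every alternative. Il18bp, Il15 and Il15ra passed the filter on low counts only through the wells with IFN-γ. Alternatives that kept this filter therefore favoured their calls and say little about them. Their calls also held in the fit without the filter, for genes chosen with earlier results of these data known. The members called with both factors against IFN-γ at 12 hrs, 1 in the main analysis (Csf1), were 0 with DESeq2, 0 with all 32 samples in the fit and 0 to 1 with a well left out, the causes not being tested. Between 12 and 4 hrs with IFN-γ they were 1 to 2 with a well left out, Il15 joining (edgeR adjusted p = 0.0374) without IFN-γ replicate 4 at 4 hrs. Signs changed only for values that were not called. With a well left out, log2FC with IFN-γ was -0.03 to 0.13 for Il10rb at 12 hrs and -0.00 to 0.19 at 4 hrs. With Activin-A at 12 hrs it was -0.07 to 0.03 for Il6st, -0.19 to 0.04 for Il10rb, -0.36 to 0.56 for Il18bp and -0.05 to 0.64 for Il15ra, and at 4 hrs -0.05 to 0.72 for Il18bp, -0.34 to 0.29 for Il15 and -0.07 to 1.89 for Il15ra. With both factors against IFN-γ it was -0.14 to 0.15 for Il15ra and -0.06 to 0.11 for Il10rb at 12 hrs, and -0.41 to 0.05 for Il15 at 4 hrs. Between the times under IFN-γ it was -0.15 to 0.09 for Il15ra and -0.09 to 0.13 for Csf1, and -0.00 for Csf1 without the filter.

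Over all genes, DESeq2 called 136 with Activin-A at 12 hrs (edgeR 216) and 84 at 4 hrs (150), 61 with both factors against IFN-γ at 12 hrs (92) and 44 at 4 hrs (74), 549 with both factors against Activin-A at 12 hrs (863), 0 for the interaction at 12 hrs (1), 284 between the times untreated (457), 501 with IFN-γ (785) and 1 for the effect of Activin-A (2). The interaction gave 8 without the filter at 12 hrs, and 1 without the filter and 1 with all 32 samples at 4 hrs. With a well left out the counts were 0 to 6 and 0 to 1 for the interaction at 12 and 4 hrs, 47 to 72 for both factors against IFN-γ at 4 hrs, 302 to 374 for untreated cells between the times, 35 to 54 for the effect of IFN-γ and 0 to 3 for that of Activin-A. Same-numbered wells did not deviate together (mean r -0.0037, -0.1009 to 0.0388), nor did wells of other numbers (mean r 0.0012, -0.0553 to 0.1293). The values thus show no pairing by number, which does not say how the wells were laid out. With the replicate block 822 genes were called with IFN-γ at 12 hrs (830) and 4 members as before. At this depth Il6 and Osmr, at 0 to 3 counts per well, gave only wide errors.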
